A study of Mus musculus with 32 samples.

Results

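Spinal motor neurons fall into fast and slow subtypes, and 8 genes used to tell these subtypes apart (Chodl, Mmp9, Calca, Calcb, Sv2a, Esrrb, Esrrg and Rbfox3) are described here, of 42524 genes in the table. The 8 were chosen by name for what is known of the subtypes, not by a rule on their levels, but with earlier results of these data known. RNA came from the spinal cord of 32 mice, with 4 mice in each of 8 groups. WT mice were littermates of the C57BL/6J strain, and G93A mice carry a human SOD1 transgene with the G93A mutation on the same background, a model of amyotrophic lateral sclerosis. Each genotype was either untreated or given OKN-007, a nitrone compound, in the drinking water, and was sampled at 90 or 155 days. The labels do not say whether these days count age, nor the dose given to the sequenced mice. In the study's own text both are ages and the earlier one lies a few days later, so the group called 90 days here, after its label, is the study's early group. Each sample was 25 mg of cord whose level along the cord is not stated, and sex is not among the labels, although the study used mainly females. The mutant SOD1 of this line is made by cells throughout the body, not by motor neurons alone, and the human transgene has no row of its own in the mouse table.

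A motor unit is a motor neuron with the muscle fibres it drives. Fast-fatigable alpha motor neurons drive the strongest and least enduring fibres, slow alpha motor neurons drive fibres that hold posture, and gamma motor neurons set the tension of muscle spindles. In mice with mutant SOD1, the fast-fatigable neurons are known to withdraw from muscle and die first, and the slow and gamma neurons persist longer. Chodl (chondrolectin, a membrane lectin) and Mmp9 (matrix metalloproteinase-9, a secreted protease) mark fast neurons, and Mmp9 is itself known to raise their vulnerability. Calca and Calcb encode the alpha and beta forms of the neuropeptide CGRP, which is richer in larger and faster motor neurons. Sv2a, a synaptic vesicle protein, marks slow neurons and their terminals, while Esrrb and Esrrg are estrogen-related nuclear receptors tied to slow and gamma identity. Rbfox3 encodes the splicing regulator NeuN, which is high in alpha and low in gamma motor neurons. None of these genes is confined to motor neurons: Sv2a and Rbfox3 are used by most neurons of the cord, and Calca is strong in sensory neurons.

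Library totals over all genes ran from 19701722 to 30138257 counts. Levels are given as CPM (counts per 1000000 counts of the library, scaled by edgeR's TMM factors over all 32 mice), and 3 counts in the smallest library equal 0.152 CPM, a limit that covers counting error only. All 8 genes were far above it: the lowest count of any was 47, for Mmp9 in a treated G93A mouse at 155 days. Genes of the lower cord (6 caudal Hox genes, as the mean of log2(CPM + 1)) varied between libraries and moved with genotype at 155 days, from 2.95 to 4.16 in WT and from 0.555 to 2.99 in G93A mice, and all 6 passed the test as lower. In 4 libraries the Schwann cell score was over 2.5. The results below were therefore also computed with the Hox score as a covariate and without the libraries of high Schwann cell score, and those of 155 days also without the 3 mice of lowest Hox score at that age. The comparisons at 90 days were not computed without the libraries of low Hox score, and the part that cord level plays in them was not tested beyond that.

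Levels of different genes can be compared only per length of their exons. In the 8 WT mice at 155 days, Sv2a had the highest mean level per length, 78.7 ± 6.17 CPM per kb (SD, n = 8), and Rbfox3 followed at 37.8 ± 1.29 CPM per kb. Calca at 15.2 ± 2.39 and Esrrg at 12.7 ± 1.49 CPM per kb did not differ beyond their spread, and the same holds for Calcb at 5.68 ± 1.09 and Chodl at 4.94 ± 1.07 CPM per kb. Mmp9 at 2.53 ± 0.196 and Esrrb at 1.496 ± 0.191 CPM per kb came last. Chodl and Mmp9 were thus among the rarer of these transcripts. In G93A mice at 155 days the order of the lowest genes was another: Chodl at 0.676 ± 0.127 and Mmp9 at 0.664 ± 0.173 CPM per kb stood beside Esrrb at 0.855 ± 0.207 CPM per kb, within their spread.

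At 155 days all 8 genes were lower in G93A than in WT mice, the 2 fast markers Chodl and Mmp9 by far more than the rest. In genotype comparisons, fell and rose mean lower or higher in G93A than in WT mice of the same age, not change over time. Averaged over treatments, Chodl was 7.02-fold and Mmp9 3.74-fold lower. The other 6 genes were between 1.24-fold (Sv2a) and 1.69-fold (Esrrb) lower. All 8 passed edgeR's quasi-likelihood test with Benjamini-Hochberg adjustment over 18675 genes, where 54.7% of all genes passed and 25.8% passed as lower. Late G93A cord thus differed from WT at most genes, and the count of members that passed is read against that background. Levels in CPM are shares of each library. In whole tissue, fewer cells of a type, less RNA per cell and more RNA from other cells cannot be told apart.

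**Figure D1:**
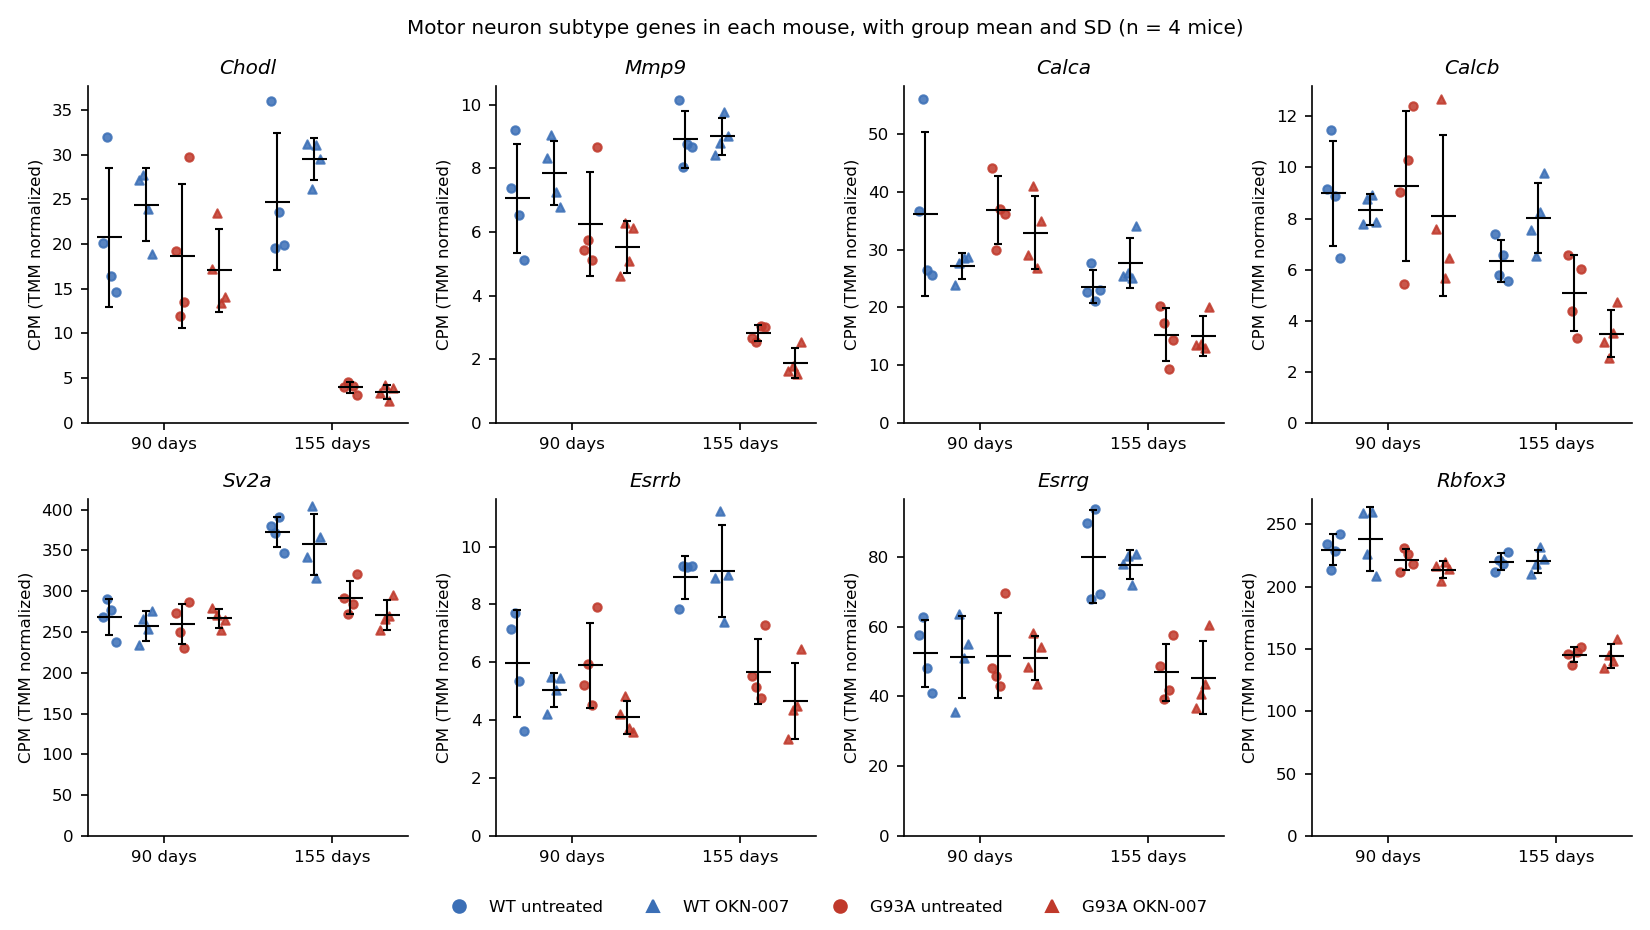
CPM of the 8 genes (y axes, from 0) in each mouse, by age and by genotype and treatment, with blue for WT, red for G93A, circles for untreated and triangles for OKN-007. Black marks give the group mean and SD of 4 mice. At 155 days the G93A mice sit between 2.43 and 4.57 CPM for Chodl, below all WT mice, while at 90 days the genotypes overlap.

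Chodl showed the steepest fall. In untreated mice at 155 days it stood at 36.0, 19.5, 23.6 and 19.9 CPM in the WT and at 4.00, 4.57, 4.15 and 3.12 CPM in the G93A mice. Among treated mice it stood at 31.2, 26.1, 31.1 and 29.6 CPM in the WT and at 3.33, 4.17, 2.43 and 3.90 CPM in the G93A mice. No G93A mouse came near a WT mouse in either treatment, and the widest spread was that of the untreated WT mice, where 1 mouse was well above the other 3. The difference was -2.60 on the log2 scale (SE 0.19, adjusted p = 2.69e-09) in untreated and -3.02 (SE 0.19, adjusted p = 3.43e-10) in treated mice.

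Mmp9 followed the same pattern at a lower level. The untreated WT mice had 10.2, 8.05, 8.78 and 8.66 CPM of Mmp9 at 155 days and the untreated G93A mice 2.66, 2.55, 3.05 and 3.03 CPM. With OKN-007, Mmp9 was at 8.42, 8.80, 9.78 and 9.03 CPM in WT and at 1.62, 1.80, 1.54 and 2.55 CPM in G93A mice. WT and G93A mice were again well apart, whereas treated replicate 16 was level with the lowest untreated G93A mouse. The log2 difference between genotypes was -1.61 (SE 0.14, adjusted p = 3.01e-08) in untreated and -2.20 (SE 0.14, adjusted p = 6.69e-10) in treated mice. Mmp9 is also made by neutrophils and reactive glia. Of 8 neutrophil markers 2 were high enough to test and 0 passed, and their summed level at 155 days ranged from 0.304 to 3.27 CPM in WT and from 0.431 to 3.15 CPM in G93A mice. The 8 microglial markers summed to between 275.5 and 348.1 CPM in WT and to between 1134 and 1901 CPM in G93A mice. Which cells the Mmp9 RNA came from was not tested.

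The CGRP genes fell less. Calca in untreated mice was at 22.7, 27.6, 21.1 and 22.9 CPM in WT and at 20.2, 17.3, 9.22 and 14.4 CPM in G93A mice at 155 days. Treated mice had 25.5, 26.0, 25.1 and 34.2 CPM in WT and 13.5, 13.7, 12.9 and 20.1 CPM in G93A. The genotypes did not overlap within either treatment, but the highest untreated G93A mouse was within 1 CPM of the lowest untreated WT mouse. The averaged difference for Calca was -0.69 (SE 0.13, adjusted p = 2.21e-04). In untreated mice alone it was -0.58 (SE 0.19, adjusted p = 0.0207), and this call was lost without WT replicate 2 (adjusted p = 0.0772) or without G93A replicate 11 (adjusted p = 0.063). Reads of Calca cover both CGRP and calcitonin, which share the gene, and 0.715% of its 50-base windows also occur in Calcb.

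Calcb was the 1 member that did not pass in untreated mice at 155 days. Its levels there were 7.38, 5.79, 6.57 and 5.56 CPM in WT and 6.58, 4.36, 3.33 and 6.02 CPM in G93A mice, so that the groups overlapped. The difference was -0.26 (SE 0.21, adjusted p = 0.336), with an interval from -0.69 to 0.17. In treated mice Calcb was at 7.54, 6.55, 8.24 and 9.78 CPM in WT and at 3.17, 2.55, 3.52 and 4.74 CPM in G93A, without overlap. The treated difference was -1.13 (SE 0.21, adjusted p = 2.50e-04). Whether these 2 differences differ was tested directly as the genotype by treatment interaction, which is given with the treatment comparisons.

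Sensory neurons are a further source of CGRP transcripts. Scn10a, a sodium channel gene of pain-sensing ganglion cells, averaged 0.0905 CPM in WT and 0.0239 CPM in G93A mice at 155 days, and Mrgprd 0.00962 and 0.0184 CPM, all below the limit of 3 counts. Of 10 markers of sensory ganglion neurons 6 could be tested, 1 (Avil) rose and 3 fell, among them Pou4f1 (-0.84, SE 0.09, adjusted p = 3.79e-07), which neurons of the cord express too. The summed level of the list was 25.5 to 31.3 CPM in WT and 18.5 to 23.2 CPM in G93A mice. With the mean log level of this list as a covariate, Calca was at -0.60 (adjusted p = 5.04e-04) and Calcb at -0.61 (adjusted p = 0.00189).

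Averaged over treatments, Sv2a had the smallest genotype difference of the 8 genes at 155 days. In untreated mice at 155 days the WT had 379.7, 371.2, 391.3 and 347.1 CPM and the G93A mice 291.8, 272.4, 283.9 and 320.6 CPM. Treated WT mice had 342.4, 404.0, 315.7 and 366.9 CPM and treated G93A mice 252.0, 266.2, 269.7 and 295.0 CPM. Within each treatment the genotypes were apart, although the highest untreated G93A mouse was above the lowest treated WT mouse. Averaged over treatments, Sv2a differed by -0.31 (SE 0.06, adjusted p = 1.05e-04).

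The estrogen-related receptors Esrrb and Esrrg were lower in G93A mice by similar amounts. Esrrb was at 7.84, 9.32, 9.29 and 9.35 CPM in untreated WT and at 5.54, 5.14, 4.75 and 7.29 CPM in untreated G93A mice. Esrrg was at 89.6, 67.8, 93.6 and 69.3 CPM in untreated WT and at 48.8, 39.2, 41.8 and 57.7 CPM in untreated G93A mice. Replicate 12 was the highest untreated G93A mouse for both genes, and for Sv2a too, yet stayed below every untreated WT mouse. The treated mice behaved alike, with Esrrb between 7.38 and 11.2 CPM in WT and between 3.33 and 6.45 CPM in G93A, and Esrrg between 71.9 and 80.9 CPM in WT and between 36.7 and 60.4 CPM in G93A. Averaged over treatments the differences were -0.75 for Esrrb (SE 0.13, adjusted p = 4.67e-05) and -0.71 for Esrrg (SE 0.10, adjusted p = 8.21e-06).

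Rbfox3 differed cleanly between the genotypes. At 155 days it ranged from 211.5 to 227.8 CPM in untreated WT, from 137.1 to 151.4 CPM in untreated G93A, from 209.7 to 232.1 CPM in treated WT and from 134.4 to 157.8 CPM in treated G93A mice. The 8 mice of each genotype formed a narrow band with a wide gap between the bands. The difference was -0.54 (SE 0.05, adjusted p = 1.02e-08), and it hardly varied with treatment, at -0.55 in untreated and -0.54 in treated mice.

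Of the 8 genes, 7 were lower with no overlap between the genotypes in untreated mice at 155 days, against 17.7% of all genes, and 8 in treated mice, against 25.2%. By the test, 7 passed in untreated mice, where 39.5% of all genes passed and 18.2% passed as lower, and 8 passed in treated mice, where 41.5% passed and 18.2% passed as lower. The median log2 difference of the 8 genes, averaged over treatments, was -0.70, beside 0.01 for all genes.

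**Figure D2:**
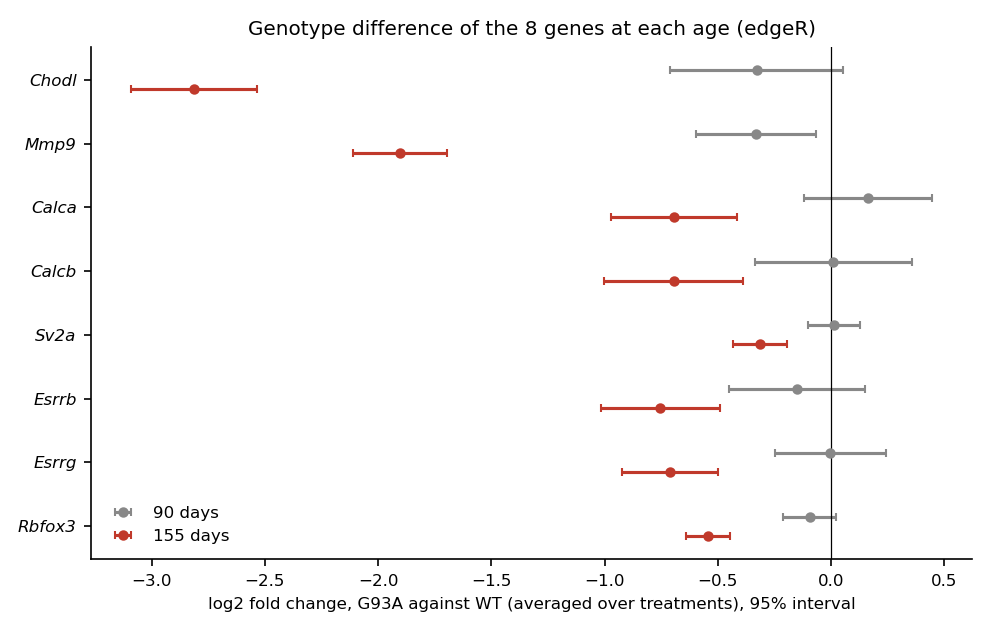
Log2 fold change of G93A against WT mice, averaged over treatments, for each gene (rows) at 90 days (grey) and 155 days (red). Points are edgeR estimates and bars 95% intervals from 16 mice per age. At 155 days all intervals lie below 0, with Chodl at -2.81 and Mmp9 at -1.90, while at 90 days only that of Mmp9, at -0.33, leaves out 0 before adjustment.

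The caudal Hox score bears on some of these calls. With the score as a covariate, the averaged differences were -3.09 for Chodl, -1.83 for Mmp9, -1.01 for Calca, -0.88 for Calcb, -0.65 for Esrrg, -0.54 for Esrrb, -0.48 for Rbfox3 and -0.26 for Sv2a, and all 8 still passed. The scores of the genotypes hardly overlap at this age, so score and genotype can be separated only in part. In untreated mice alone, the covariate took Sv2a to -0.25 (adjusted p = 0.0837) and Esrrb to -0.40 (adjusted p = 0.207), and in treated mice it took Sv2a to -0.27 (adjusted p = 0.0718), so these calls were lost. Without the 3 G93A mice whose score was under 2, Sv2a in untreated mice was at -0.26 (adjusted p = 0.0558) and Esrrb at -0.52 (adjusted p = 0.0683), while the averaged differences of all 8 genes passed. Without the libraries of high Schwann cell score, Chodl was at -2.90 and Mmp9 at -1.91.

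**Figure D3:**
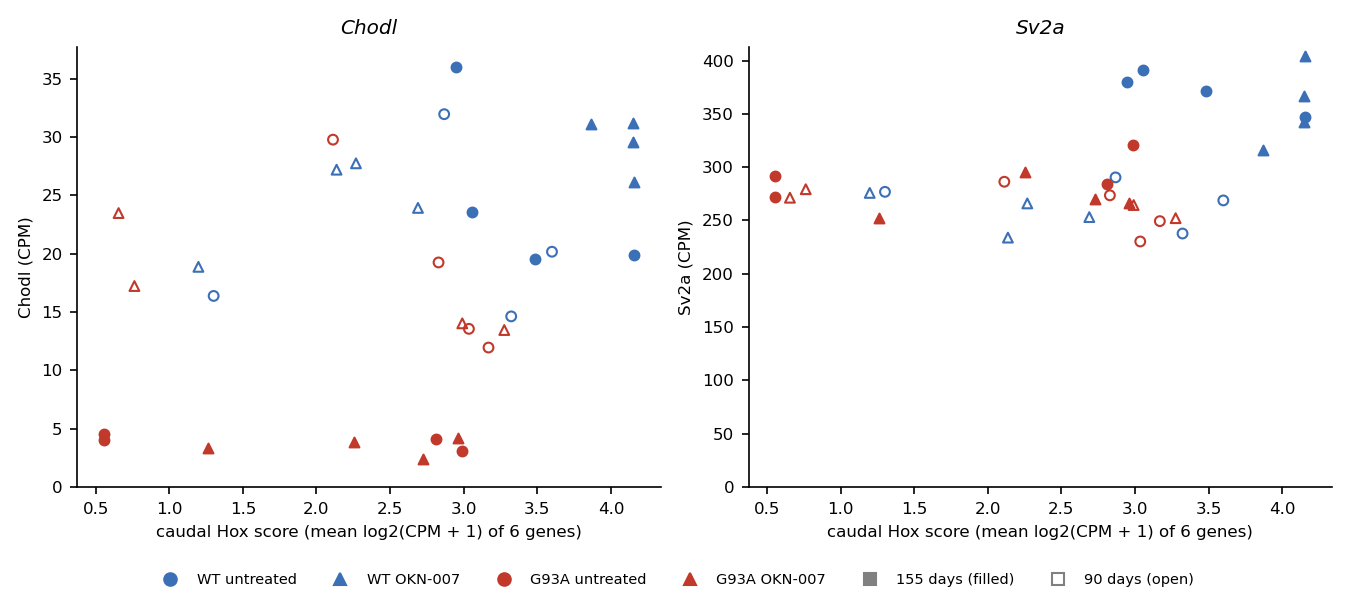
Level of Chodl (left) and Sv2a (right) in CPM against the caudal Hox score of the same library, for 32 mice. Filled symbols are 155 days and open symbols 90 days, with blue for WT, red for G93A, circles for untreated and triangles for OKN-007. The 155-day G93A mice are low in Chodl at every score from 0.555 to 2.99.

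Other genes that separate motor neuron subtypes did not move as 1 block at 155 days. Of 8 such genes outside the members, 4 fell and 3 rose. Vipr2, a peptide receptor gene, fell by 1.88 on the log2 scale (adjusted p = 6.51e-07), and Kcnq5, a potassium channel gene, by 0.62 (adjusted p = 1.39e-06). Spp1 (osteopontin, which motor neurons and activated microglia both make) rose by 2.35 (adjusted p = 3.60e-12 by edgeR) and Prkcd, a protein kinase gene, by 1.34 (adjusted p = 3.68e-09). Their median was -0.12. All 8 microglial markers rose in the same mice, and the part of microglial RNA in the levels of Spp1 and Prkcd was not tested.

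Genes that all motor neurons or all neurons use were lower too. All 10 cholinergic and motor neuron identity genes fell (median -1.02), among them Isl2 (-1.63), a transcription factor gene of motor neurons, Nefh (-1.36), a neurofilament gene, and Isl1 (-0.53). All 10 genes of neurons in general fell (median -0.59), with Nefl lowest at -1.23 and Elavl3 least changed at -0.14. The falls of Rbfox3, Calca, Calcb, Esrrb and Esrrg lay within the range of both lists, that of Sv2a within the range of the neuronal list alone, and those of Chodl and Mmp9 beyond the lowest gene of both.

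Chat, the gene of the enzyme that makes acetylcholine in all spinal motor neurons, was used as a reference within each mouse. At 155 days Chat ranged from 14.2 to 25.1 CPM in the 8 G93A and from 25.7 to 37.5 CPM in the 8 WT mice, a difference of -0.70 (SE 0.07, adjusted p = 9.90e-08) averaged over treatments. Relative to Chat, as log2 of the ratio of CPM + 0.5, Chodl was between -2.50 and -1.80 in the 8 G93A mice and between -0.63 and 0.08 in the 8 WT mice. Mmp9 was between -3.18 and -2.54 in G93A and between -1.95 and -1.62 in WT mice. Both genes had left the range of the WT mice in every G93A mouse. The ratio of Chodl to Chat was 3.88-fold and that of Mmp9 to Chat 2.02-fold lower, each with an adjusted p of 0.00327 in an exact permutation of genotype within treatment (two-sided, 4900 arrangements, adjusted over 16 tests). The unadjusted p of 0.000408 is the smallest this test can give. Ratios of genes outside the members were not tested, so no share of all genes stands beside the ratio calls at either age. Chat itself fell less than the median of the cholinergic list, in which Isl2 was at -1.63. The size of both ratios thus depends on the reference gene, and only Slc5a7 was tried in place of Chat. Whether the Chat RNA of whole cord came from motor neurons alone was not tested. Over 21 alternatives the log2 difference at 155 days was between -2.07 and -1.68 for Chodl and between -1.17 and -0.74 for Mmp9.

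Among the other 6 genes 1 ratio to Chat passed at 155 days. Sv2a was higher relative to Chat, by 0.37 (exact permutation, adjusted p = 0.049), but the difference was 0.10 in untreated and 0.65 in treated mice and the call was lost in 13 of 16 analyses that left out a mouse. The remaining genes lay between -0.03 (Esrrg) and 0.14 (Rbfox3), with adjusted p of 0.599 or more by the same exact test. Calca, Calcb, Esrrb, Esrrg and Rbfox3 thus showed no called difference from Chat in how far they were lower. At 90 days Mmp9 was 1.24-fold lower relative to Chat (exact permutation, adjusted p = 0.049) and Chodl 1.27-fold (adjusted p = 0.0993), and the call of Mmp9 was lost in 12 of 16 analyses that left out a mouse.

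**Figure D4:**
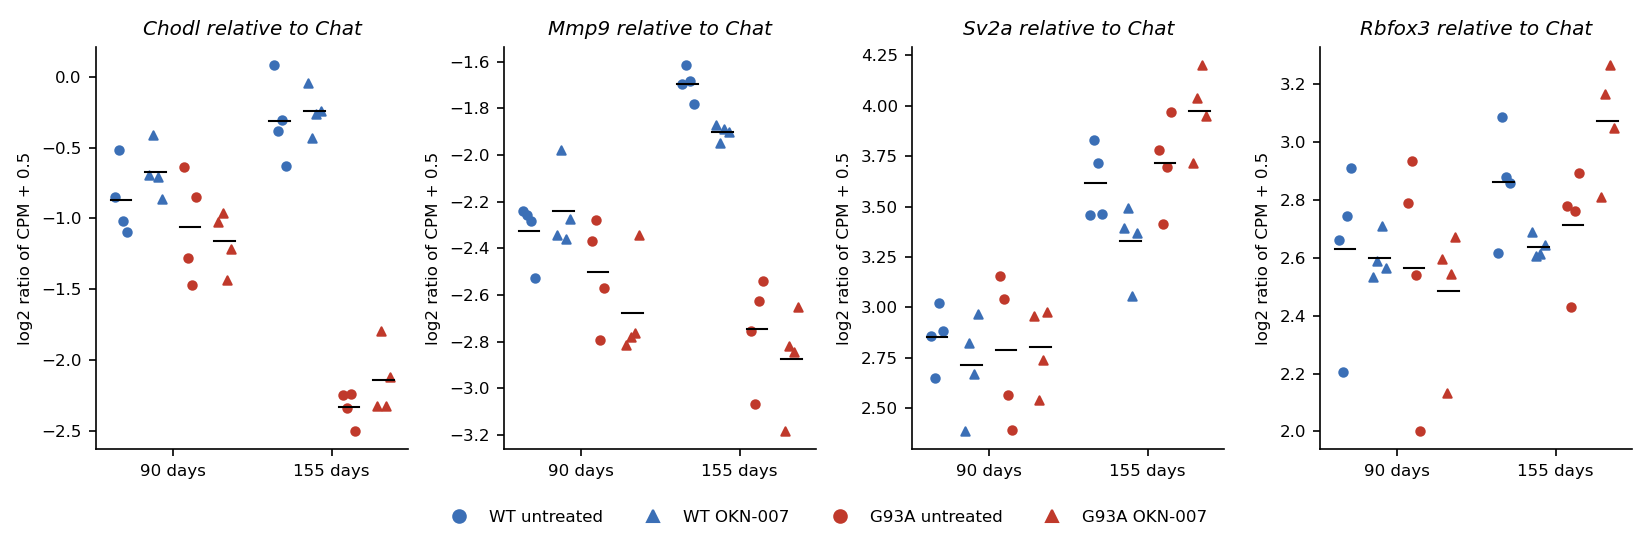
Log2 ratio of 4 genes to Chat (y axes, CPM + 0.5 in both) in each mouse, by age, genotype (blue WT, red G93A) and treatment (circles untreated, triangles OKN-007), with group means as lines. At 155 days Chodl and Mmp9 are lower relative to Chat in every G93A mouse than in every WT mouse, while Sv2a and Rbfox3 overlap between the genotypes over both treatments.

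At 90 days none of the 8 genes passed the test between genotypes. By edgeR's test 0 of 8 passed in untreated, treated or averaged comparisons, where 0%, 0% and 0.0265% of 18899 genes passed and 1126, 747 and 1250 had an unadjusted p under 0.05. DESeq2 called 0 of the 8 as well. Chodl was at 20.2, 31.9, 16.4 and 14.6 CPM in untreated WT and at 19.2, 11.95, 13.6 and 29.8 CPM in untreated G93A mice, with 1 high mouse in each group. In treated mice Chodl was at 27.2, 27.7, 23.9 and 18.9 CPM in WT and at 17.2, 23.5, 13.5 and 14.03 CPM in G93A. The genotypes overlapped in both treatments. The averaged difference for Chodl was -0.33 (SE 0.18, interval -0.71 to 0.05, unadjusted p = 0.0868, adjusted p = 0.799 by edgeR), so a fall of the size seen at 155 days was outside its interval.

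Mmp9 came closest to a call at 90 days. In untreated mice it was at 7.38, 9.21, 6.54 and 5.11 CPM in WT and at 5.44, 5.74, 5.12 and 8.68 CPM in G93A. Treated mice had 8.32, 9.04, 7.26 and 6.80 CPM in WT and 4.62, 6.28, 5.07 and 6.13 CPM in G93A, without overlap, which 1.15% of all genes also showed in this direction. The treated difference was -0.51 (SE 0.18, unadjusted p = 0.0107, adjusted p = 1 by edgeR). Averaged over treatments it was -0.33 (SE 0.13, unadjusted p = 0.0176, adjusted p = 0.623 by edgeR). The other 6 genes overlapped between genotypes in both treatments at 90 days. Rbfox3 had a difference of -0.09 and Calca of 0.16, averaged over treatments, with unadjusted p of 0.109 and 0.246 by edgeR.

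The lists showed as little at this age. Of the 10 cholinergic, 10 neuronal, 8 further subtype and 6 caudal Hox genes, 0 passed at 90 days, and the medians lay between -0.05 and 0.07.

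The change with age was itself tested. Averaged over treatments, the G93A difference at 155 days was further below 0 than at 90 days for all 8 genes, by edgeR's test on 19829 genes, of which 37.5% passed and 17.8% passed as lower. The step was -2.51 for Chodl (SE 0.25, adjusted p = 2.24e-09) and -1.59 for Mmp9 (SE 0.17, adjusted p = 7.06e-09). It was -0.88 for Calca, -0.73 for Calcb, -0.73 for Esrrg, -0.63 for Esrrb, -0.47 for Rbfox3 and -0.35 for Sv2a. In untreated mice alone 4 genes passed (Chodl, Mmp9, Esrrg and Rbfox3), where 21.2% of all genes did and 8.34% did as lower. Without WT replicate 2 of 90 days 7 passed, and the call of Esrrg was lost when any of 6 mice was left out, with the largest adjusted p without G93A replicate 12 of 90 days (-0.56, adjusted p = 0.0993).

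Part of this step came from the WT mice. For Sv2a and Esrrb the G93A mean was no lower at 155 than at 90 days. Sv2a rose in WT from 262.9 ± 19.8 to 364.8 ± 28.6 CPM between the ages (SD, n = 8), Esrrb from 5.51 ± 1.36 to 9.05 ± 1.15 CPM and Esrrg from 51.8 ± 9.97 to 78.9 ± 9.28 CPM. These 3 passed edgeR's test, at 0.47 (adjusted p = 2.29e-07), 0.72 (adjusted p = 1.26e-04) and 0.60 (adjusted p = 1.44e-04), where 44.2% of all genes passed and 24% passed as higher. In G93A mice the same genes were at 263.4 and 281.5 CPM (Sv2a), 4.99 and 5.17 CPM (Esrrb) and 51.4 and 46.1 CPM (Esrrg) at 90 and 155 days. A rise in older WT mice was also called for all 4 relatives of Sv2a and Rbfox3. It was called for 5 of 10 genes of neurons in general and for 4 of 10 cholinergic genes. Other genes of these lists had a lower WT mean at 155 than at 90 days, among them Elavl3 (473.8 against 682.2 CPM) and Chat (32.5 against 37.95 CPM). The 3 of 8 members that passed stand beside the 24% of all genes that passed as higher. Chodl was lower in older G93A mice outright, from 17.8 ± 6.13 to 3.71 ± 0.695 CPM, and Mmp9 from 5.89 ± 1.26 to 2.35 ± 0.611 CPM. Rbfox3 went from 217.7 ± 8.27 to 145.0 ± 7.62 CPM in G93A and from 234.0 ± 19.0 to 220.1 ± 7.52 CPM in WT mice. The caudal Hox score of WT mice was also higher at 155 than at 90 days, at medians of 4.01 and 2.48, and age and any batch of library making cannot be told apart.

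None of the 8 genes passed the test for OKN-007. In G93A and in WT mice, at both ages, 0 of 8 passed edgeR's test, and 0% of all genes did. At an unadjusted p under 0.05 there were 755 genes in G93A and 549 in WT mice at 155 days, and 1050 and 769 at 90 days. DESeq2 also called 0 of the 8. Mmp9 in G93A mice at 155 days had the smallest p of the members: the treated mice averaged 1.88 ± 0.461 CPM and the untreated 2.82 ± 0.254 CPM (SD, n = 4), a log2 difference of -0.59 (interval -0.91 to -0.28, unadjusted p = 9.33e-04, adjusted p = 1 by edgeR). Calcb differed there by -0.55 (interval -0.99 to -0.10, unadjusted p = 0.0187). For Chodl the difference was -0.19 (interval -0.61 to 0.24), for Esrrb -0.29 (interval -0.67 to 0.09) and for Sv2a -0.10 (interval -0.27 to 0.06). In WT mice at 155 days Chodl was at 0.23 (interval -0.11 to 0.58), Calca at 0.21 and Calcb at 0.32. Neither fast marker had a higher mean with treatment in G93A mice at 155 days, and for Chodl the interval leaves out a rise of more than 0.24 on the log2 scale.

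**Figure D5:**
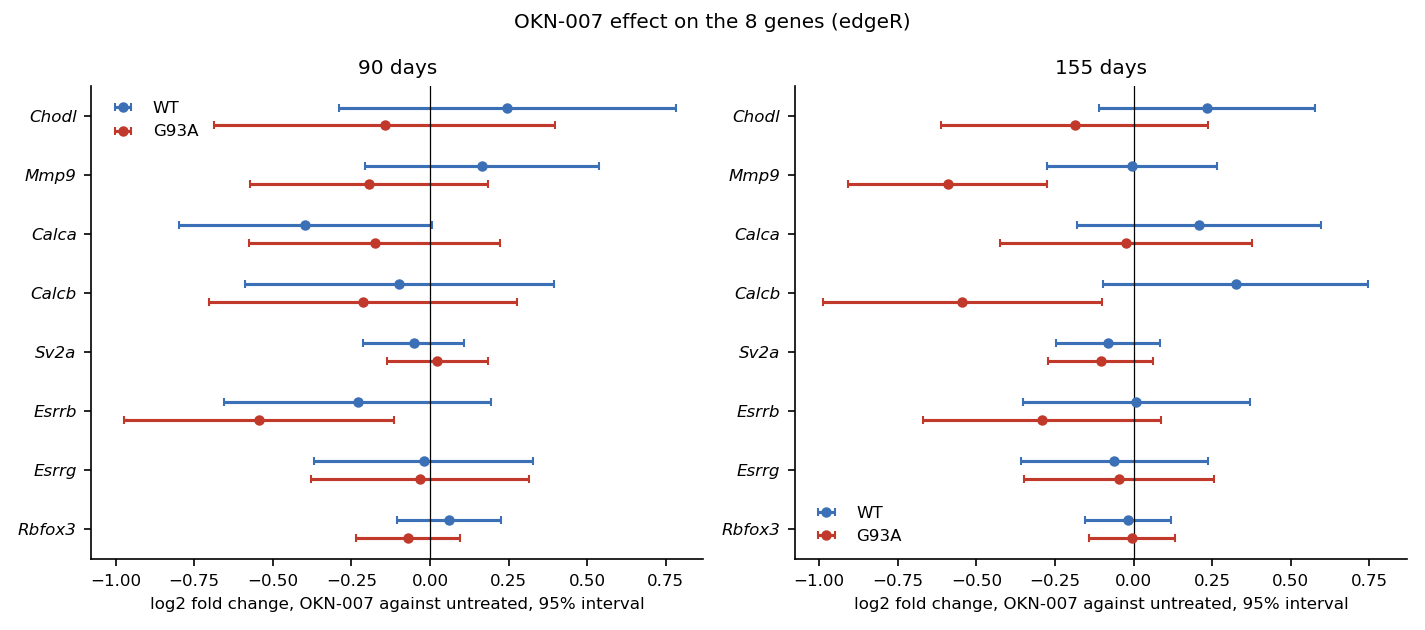
Log2 fold change of OKN-007 against untreated mice for each gene (rows) in WT (blue) and G93A mice (red), at 90 days (left) and 155 days (right). Points are edgeR estimates and bars 95% intervals, unadjusted, from 4 mice per group. No gene passed after adjustment, and the lowest point at 155 days is that of Mmp9 in G93A mice, at -0.59.

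The genotype by treatment interaction asks whether the treatment acted differently in G93A mice, and 0 of 8 genes, as 0% of all genes, passed it at either age, where 437 genes at 155 and 531 at 90 days had an unadjusted p under 0.05. DESeq2 called 0 of the 8 here too. At 155 days it was -0.87 for Calcb (SE 0.29, unadjusted p = 0.00782) and -0.59 for Mmp9 (SE 0.20, unadjusted p = 0.00808), each with an adjusted p of 1 by edgeR, and -0.42 for Chodl and -0.30 for Esrrb. The difference in call of Calcb between untreated and treated mice was thus not itself a call. At 90 days Esrrb was lower in treated than in untreated G93A mice, at 4.09 ± 0.554 against 5.90 ± 1.47 CPM (-0.54, unadjusted p = 0.0155, adjusted p = 0.837 by edgeR), and Calca was lower in treated WT mice (-0.40, unadjusted p = 0.0532, adjusted p = 0.993), whose untreated group held 1 mouse at 56.0 CPM. The interaction was -0.39 for Chodl and -0.36 for Mmp9 at that age.

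Around the members, the genes they act with were measured as well. Mmp9 is held in check by the TIMP inhibitors and bound by CD44 and lipocalin-2. Of 8 such genes tested at 155 days 7 rose: Timp1 from 0.180 to 17.5 CPM (6.65, SE 0.25), Lcn2 from 0.820 to 7.01 CPM (3.02, SE 0.60), Timp2 by 0.46 and Timp3 by 0.21. Reck, a further inhibitor, did not pass, at 0.04. Glial markers rose in the same mice, all 8 of microglia and 5 of 7 of astrocytes, with Gfap, the filament gene of reactive astrocytes, up by 2.53 on the log2 scale (adjusted p = 1.27e-14 by edgeR), and the part of glial RNA in these genes was not tested. CGRP acts through the receptor Calcrl with the accessory protein Ramp1, and both rose, Calcrl by 0.33 (SE 0.09, adjusted p = 0.00314) and Ramp1 by 0.28 (SE 0.09, adjusted p = 0.0119), as did the related peptide gene Adm (0.62, adjusted p = 0.0489). The other 3 of 6 genes tested, Ramp2 (0.24), Ramp3 (-0.05) and Crcp (0.01), did not pass.

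Relatives of Sv2a, Rbfox3 and the estrogen-related receptors were also lower in G93A than in WT mice at 155 days. Sv2b fell by 1.14 and Sv2c by 0.79 on the log2 scale, each by more than Sv2a, while Rbfox1 fell by 0.46 and Rbfox2 by 0.52. The third estrogen-related receptor gene, Esrra, fell by 0.26, its coactivator genes Ppargc1a and Ppargc1b by 0.47 and 0.42, and the corepressor gene Nrip1 by 0.27. All 8 passed, with adjusted p of 0.0121 or less by edgeR.

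Across the 32 mice, Chodl and Mmp9 ran together. Of 19828 other genes, those whose log2 CPM was most like that of Chodl were Slc10a4 (r = 0.970), a transporter gene of cholinergic neurons, Kcnj14 (0.967), a potassium channel gene, Mmp9 (0.961), Sh3bgr (0.947) and Cd55 (0.938). These values carry the genotype difference at 155 days that all these genes share. In the 16 WT mice alone Mmp9 was again among the 5 most like Chodl (r = 0.866), behind Mapre1 (0.899) and Pik3ca (0.890). The 16 WT mice span both ages and both treatments, so these values carry any step between those groups that the genes share. For Mmp9 the most alike were Chodl and Sh3bgr (0.950), for Sv2a Fbxo21 (0.970) and Apba1 (0.969), for Esrrb Hapln4 (0.930) and Mapk8ip2 (0.927), and for Esrrg Extl2 (0.977) and Gdap1 (0.977). Calca was most like Ndufaf2 (0.861) and 2410004B18Rik (0.859), Calcb like Aktip (0.879) and Tstd3 (0.866), and Rbfox3 like Parp6 (0.960) and Bex2 (0.954).

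With the group means removed, Chodl and Mmp9 still ran together, and so did Sv2a and the estrogen-related receptors. Over the 32 mice Chodl and Mmp9 had r = 0.697, and Chodl and Chat 0.757. Among Sv2a, Esrrb and Esrrg the values were 0.794 (Sv2a and Esrrb), 0.779 (Sv2a and Esrrg) and 0.773 (Esrrb and Esrrg), and Calca and Calcb had 0.670. Chodl had 0.300 with Sv2a, 0.329 with Esrrb and 0.442 with Esrrg, while Mmp9 had 0.457, 0.625 and 0.687 with the same genes, the last close to its value with Chodl. Rbfox3 ran with none of them, from -0.299 with Sv2a to 0.041 with Mmp9. Libraries share depth and cord level in these values, and the caudal Hox score itself had r of -0.331 with Chodl, -0.160 with Sv2a and 0.450 with Rbfox3.

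The promoter of Chodl is shown because this gene changed most. RefSeq lists promoter windows for 6 of the 8 genes in GRCm38.p6, and the 250 bases before the start of Chodl lie at chr16:78930698-78930947 on the plus strand. The capitals mark TATATA, 29 bases before the start, which was looked for after the sequence had been read.

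Chodl: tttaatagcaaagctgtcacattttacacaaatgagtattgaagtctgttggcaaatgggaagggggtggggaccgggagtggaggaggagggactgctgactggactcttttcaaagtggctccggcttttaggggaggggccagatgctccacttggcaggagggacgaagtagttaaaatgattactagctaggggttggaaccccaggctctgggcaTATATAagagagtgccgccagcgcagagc

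TATATA, searched on both strands, is in 5.25% of 32851 mouse windows of this length and in 1 of 10 windows of the members, that of Chodl. TATAAA is in 12.37% of all windows and in 1 of the 10, at Esrrg. AAGGTCA, the letters that estrogen-related receptors are known to bind, is in 4.08% of all windows and in 0 of the 10, which says only that these letters are not in these windows. No measurement of binding or methylation was made in these mice.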

How the data were processed

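RNA of 25 mg spinal cord from 32 mice was sequenced from TruSeq Stranded mRNA libraries, and the authors deposited raw counts per gene, not normalized. The study's methods name Trimmomatic, STAR, HTSeq and a GENCODE mouse annotation, whereas the submitters' processing notes name FastQC, STAR, featureCounts, edgeR and the builds hg38, GRCm39 and mm39. Of the 42524 gene IDs, 1306 are numbered above the highest of GENCODE M21, so the counter and build are not settled, and no coordinate of the table is given. A strand setting is not given in the sources used here. Symbols and exon lengths came from GENCODE M21, which matched 41203 IDs (96.9%). No exon of the 8 genes overlaps an exon of another gene, although 4 genes overlap Esrrg and 3 overlap Rbfox3.

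Groups follow the labels. Within each age, 16 mice were fitted together with edgeR 4.0.16 (filterByExpr, TMM, glmQLFit, glmQLFTest, two-sided) in R 4.3.3, and age comparisons used all 32 mice. A gene was called at a Benjamini-Hochberg adjusted p under 0.05. Intervals are 95% and unadjusted. Nothing in the labels names litters or batches, so p-values measure the spread between these mice. The closest 2 libraries of a group had a chi-square of 3.8 per gene. Ratios to Chat used a pseudocount of 0.5 CPM and exact permutation. Correlations used log2 CPM with a prior count of 2. The tests were checked on simulated data.

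The members and gene lists were chosen with earlier results of these data known. Of each list, up to 4 genes were named: the 2 largest and 2 smallest log2 fold changes among those that passed in the averaged comparison at 155 days. All family relatives and receptor genes could be named, as could the 5 genes most like Chodl and the 2 most like each other member. Scn10a, Mrgprd and Reck were named after their values had been looked at. The alternatives were DESeq2 1.42.0, RLE factors, other filters on low counts (none, or at least 10 counts in every mouse), other sample sets, the caudal Hox and sensory scores as covariates, leaving out each mouse, the sample number as a block, other pseudocounts (0.1 and 1) and Slc5a7 in place of Chat. Leaving out libraries of high Schwann cell score (over 2.5, 4 mice) or low caudal Hox score (under 2, 3 mice, at 155 days only) was added after the data were seen.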

Additional observations from a re-analysis of the deposited data

Results flagged for a closer look

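In 3 of 64 groups of 4 mice, 1 mouse stood apart from the other 3 by Dixon's criterion, where chance gives about 3.2. Calca in the treated WT group of 155 days was at 34.2 CPM in replicate 8, with the next mouse at 26.0 CPM. In the treated G93A group of 155 days Calca was at 20.1 CPM in replicate 16, with the next at 13.7 CPM. Esrrb in untreated WT mice of 155 days was at 7.84 CPM in replicate 1, with the next at 9.29 CPM.

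The difference between G93A and WT mice differed between the ages by edgeR's test of the difference itself, further below 0 at 155 than at 90 days. Averaged over treatments the step was -2.51 for Chodl, -1.59 for Mmp9, -0.88 for Calca, -0.73 for Calcb, -0.35 for Sv2a, -0.63 for Esrrb, -0.73 for Esrrg and -0.47 for Rbfox3. In untreated mice it was -2.48 for Chodl, -1.47 for Mmp9, -0.74 for Esrrg and -0.54 for Rbfox3.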

How the results depend on the processing

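All 8 genes passed as lower in G93A mice at 155 days, averaged over treatments, under each of 25 alternatives, with Chodl between -3.09 and -2.70 and Mmp9 between -1.99 and -1.83. Of 38 called values of the members, 0 changed sign under any alternative, and of 82 uncalled ones 31 did, mostly near 0. The members called in untreated mice at 155 days numbered 5 to 7 and in treated mice 7 or 8, and 0 members were called under any alternative at 90 days or for OKN-007.

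Counts over all genes moved more. With the Hox score as covariate, 6678 genes were called at 155 days averaged over treatments. With no filter on low counts, the calls were 17 and 10 for OKN-007 in G93A and WT mice and 8 for the interaction at 155 days, and at 90 days 39 (untreated), 24 (treated) and 110 (averaged) for genotype, 8 and 14 for OKN-007 in G93A and WT mice and 3 for the interaction. DESeq2 called 2 genes for OKN-007 in WT mice and 2 for the interaction at 155 days, and 16, 3 and 66 for genotype in untreated, treated and averaged mice at 90 days. A fit of all 32 mice called 2, 1, 1 and 21 genes for OKN-007 in WT mice and the interaction at 155 days and for genotype at 90 days in untreated and averaged mice. The averaged count at 90 days was 2 with at least 10 counts in every mouse and 8 with the sensory score, and the treated count was 3 in the compared groups alone. Leaving out 1 mouse gave 3 to 54 calls for genotype at 90 days averaged over treatments, 54 of them without untreated G93A replicate 12, 0 to 4 in untreated mice, 0 to 3 for OKN-007 in WT mice at 155 days and 0 to 1 for the interaction there.

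For the members, the WT age comparison called 5 of 8 with at least 10 counts in every mouse or with the Hox score, and 3 to 5 when a mouse was left out. The untreated age difference called 3 to 7 when a mouse was left out. Of the ratios to Chat, 0 passed at 90 days with a pseudocount of 1 or with Slc5a7, 0 passed at either age in untreated or treated mice alone, where 4 mice against 4 could pass only with most of the 16 tests at their smallest p, and 0 to 2 passed at 90 days when a mouse was left out. The ratio of Rbfox3 at 155 days was -0.15 in untreated mice alone, and that of Esrrg was 0.25 in treated mice alone, 0.24 with Slc5a7 and between -0.1061 and 0.0392 when a mouse was left out. The causes were not tested.

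Same-numbered mice of the ages did not deviate together (correlations of their deviations from -0.215 to 0.133), 3 of 16 correlated best with their own number among the 4 mice of that group, and the labels do not say that a number marks a pair. The fit with the replicate block called 6 members in untreated mice against 4 without it, adding Calca (-0.74, adjusted p = 0.0224) and Sv2a (-0.29, adjusted p = 0.0434), 8 averaged over treatments, and 4 in the WT age comparison, where Mmp9 was added (0.28, adjusted p = 0.0349). Over all genes the same fits called 4197, 7203 and 8504, against 4211, 7426 and 8770 without the block. Within an age the groups share no number. Chodl and Mmp9 rest on 47 to 116 counts in late G93A mice, and the size of treatment difference that 4 mice a group could detect was not measured.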
